A study of Mus musculus with 29 samples.

Results

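Transcripts of 10 hepatocyte genes were followed in every RNA-seq library of brown adipose tissue (BAT) and gastrocnemius skeletal muscle (SkM) from mice under caloric restriction (CR), treadmill exercise training (EX) or both (CREX). The members were picked by symbol from a count table of 24770 rows: Alb, Ttr, Ahsg, Fga, Fgb, Fgg, Hpx, Hamp, Fabp1 and Cps1. All 10 were present, and each had at least 1 count in both tissues. They were listed with earlier results of these data known, and which readings prompted the choice is not recorded, so the group comparisons of the members below are a description and carry no independent support. The label calls them secreted-protein transcripts, but Fabp1 and Cps1 encode intracellular proteins, so the set is called hepatocyte transcripts here.

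The animals were wild-type C57BL/6J males, 8 weeks old at the start of an 8-week intervention. Control mice ate chow freely without training, CR mice had their food cut by 10% each week down to 70% of free intake, EX mice ran on a treadmill for 1 h on 5 days per week, and CREX mice received both. All mice were fasted for 6 h, and trained mice were sampled 24 h after the last run. BAT gave 3 control, 4 CR, 4 EX and 4 CREX libraries, and SkM gave 4 control, 3 CR, 4 EX and 3 CREX libraries, 29 in all. Nothing in the sources used here says which BAT and SkM libraries came from one mouse. Total counts ran from 21047253 to 24919384 in BAT and from 23050928 to 23425293 in SkM, so 3 counts in a library were worth 0.120 to 0.143 CPM (counts scaled to a library of 1000000). Counting intervals and floors below cover counting error only. The labelled tissues matched their markers. Ucp1, the uncoupling protein of brown fat, had 34392 to 118014 counts in the BAT libraries and 0 to 3 in SkM. In SkM, 10 muscle genes summed to 105950 to 171627 CPM. SkM CREX 2 and 3 stood apart in Mb, which encodes myoglobin, at 634 and 981 CPM against a median of 4329 CPM over the SkM libraries. Both had few member counts.

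Hepatocytes make most plasma proteins and keep these genes active through a small set of liver-enriched transcription factors, HNF1 and HNF4 among them. Albumin (Alb) carries fatty acids and sets oncotic pressure, transthyretin (Ttr) carries thyroid hormone and retinol-binding protein, and fetuin-A (Ahsg) inhibits ectopic calcification. Fga, Fgb and Fgg encode the chains of fibrinogen, the precursor of the clot. Hemopexin (Hpx) binds free haem. Hepcidin (Hamp) is the hormone that closes the iron exporter ferroportin. Fabp1 chaperones fatty acids in the cytosol of liver and intestinal cells, and Cps1 carries out the first step of the urea cycle in mitochondria. In bulk tissue, the number of cells of a type and the RNA per cell cannot be told apart.

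The stretches upstream of the start sites are shown as a description. Whether their motifs bear on the joint movement of the members across libraries, described below, was not tested. RefSeq promoters of GRCm38.p6 were given for 8 of the 10 genes, all but Ttr and Cps1. In the 150 bases before the start, an HNF1 half-site (GTTAAT, either strand) was found in 4 of the 8, against 3.71% of 32817 promoters. In the sequences of these genes the capitals mark that half-site, read as ATTAAC where it lies on the opposite strand.
Alb (chr5:90460720-90460869, plus strand): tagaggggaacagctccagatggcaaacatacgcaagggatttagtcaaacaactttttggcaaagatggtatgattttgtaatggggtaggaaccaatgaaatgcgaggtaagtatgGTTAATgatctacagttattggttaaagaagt
Fga (chr3:83026003-83026152, plus strand): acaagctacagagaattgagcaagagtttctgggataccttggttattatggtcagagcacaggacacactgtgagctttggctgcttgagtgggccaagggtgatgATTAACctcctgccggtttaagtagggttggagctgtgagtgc
Fgb (chr3:83049864-83050013, minus strand): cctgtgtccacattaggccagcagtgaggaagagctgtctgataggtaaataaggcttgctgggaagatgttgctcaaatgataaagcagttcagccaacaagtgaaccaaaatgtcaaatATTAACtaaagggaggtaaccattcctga
Fabp1 (chr6:71199729-71199878, plus strand): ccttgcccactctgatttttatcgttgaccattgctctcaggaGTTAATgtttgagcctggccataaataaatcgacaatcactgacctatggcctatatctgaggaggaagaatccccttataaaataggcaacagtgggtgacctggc
The half-site began 32 bases before the start in Alb (first base -32), at -43 in Fga, at -29 in Fgb and at -107 in Fabp1. The upstream stretch of Hamp held neither strand of the half-site. It held the letters of a BMP response element (GGCGCC, either strand) at -109 to -104 and of a STAT core (TTCNNNGAA, which reads the same on both strands) at -97 to -89, which are marked in capitals here because BMP and IL-6 signals are the known inputs to hepcidin.
Hamp (chr7:30944030-30944179, minus strand): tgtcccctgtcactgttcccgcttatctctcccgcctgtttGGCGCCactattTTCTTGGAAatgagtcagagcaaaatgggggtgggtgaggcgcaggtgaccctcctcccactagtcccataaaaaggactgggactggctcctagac
GGCGCC occurred in 7.01% of all promoters and TTCNNNGAA in 4.09%, and among the 8 member promoters each was found in Hamp only. The core of an HNF4 direct repeat (CAAAGTCCA, either strand) was in 0 of the 8 and in 0.271% of all promoters. None of the motifs overlapped another. A match here is a match of letters and not a binding site.

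In BAT CR, EX and CREX and in SkM CREX the hepatocyte transcripts were concentrated in a single library of the group. In SkM CR they were high in every library. Their summed counts exceeded 800 in 3 of 15 BAT libraries and in 4 of 14 SkM libraries. In BAT the high libraries were 1 CR library (replicate 3, 1670 counts), 1 EX library (replicate 2, 1254 counts) and 1 CREX library (replicate 4, 1030 counts). BAT control 1 had 109 and control 3 had 40, and the other 10 BAT libraries had 4 to 9. In SkM the CR libraries had 837, 5331 and 5450 counts, and CREX 1 had 1121. The remaining SkM libraries had 1 to 95, with 95 in control 2, 45 in EX 1, 26 in EX 4 and 22 in control 3. Even at the highest, SkM CR 3, the 10 genes made up 0.0235% of the library.

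**Figure D1:**
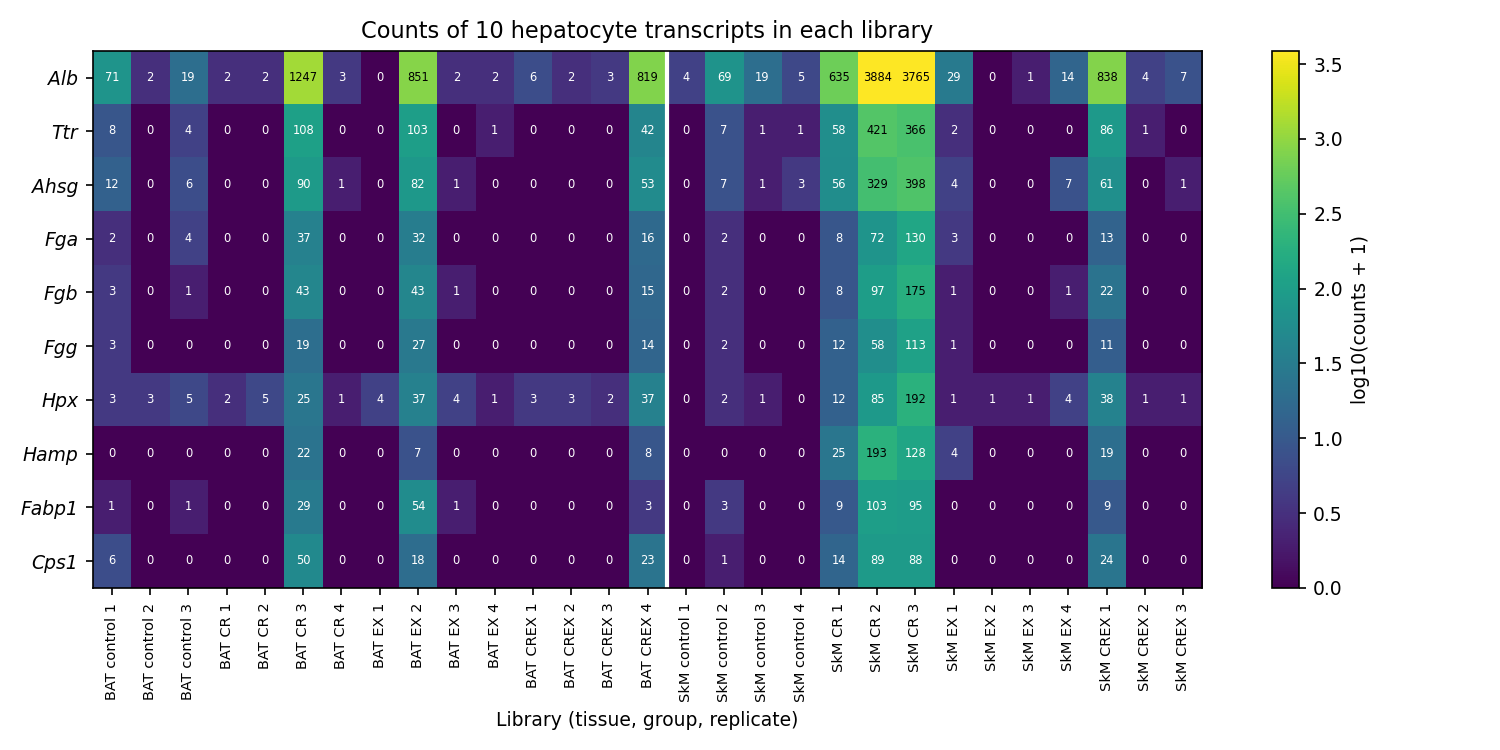
Counts of the 10 hepatocyte transcripts (rows) in the 29 libraries (columns, BAT left of the white line and SkM right of it). Colour gives log10(counts + 1) and the number in each cell is the count; 3 BAT columns and 4 SkM columns are bright over all or nearly all rows, up to 3884 counts for Alb in SkM CR 2.

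The group means followed these libraries. In BAT the summed level was 2.21 ± 2.33 CPM in control (SD, n = 3), 17.4 ± 34.3 in CR (n = 4), 14.5 ± 28.6 in EX (n = 4) and 10.4 ± 20.2 in CREX (n = 4). Each intervention group's SD was larger than its mean, since 1 of its 4 libraries carried nearly all of the counts. In SkM the summed level was 1.49 ± 1.98 CPM in control (n = 4), 152 ± 99.7 in CR (n = 3), 0.846 ± 0.960 in EX (n = 4) and 15.7 ± 26.8 in CREX (n = 3). Only in SkM CR did all libraries of a group lie above 800 summed counts.

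**Figure D2:**
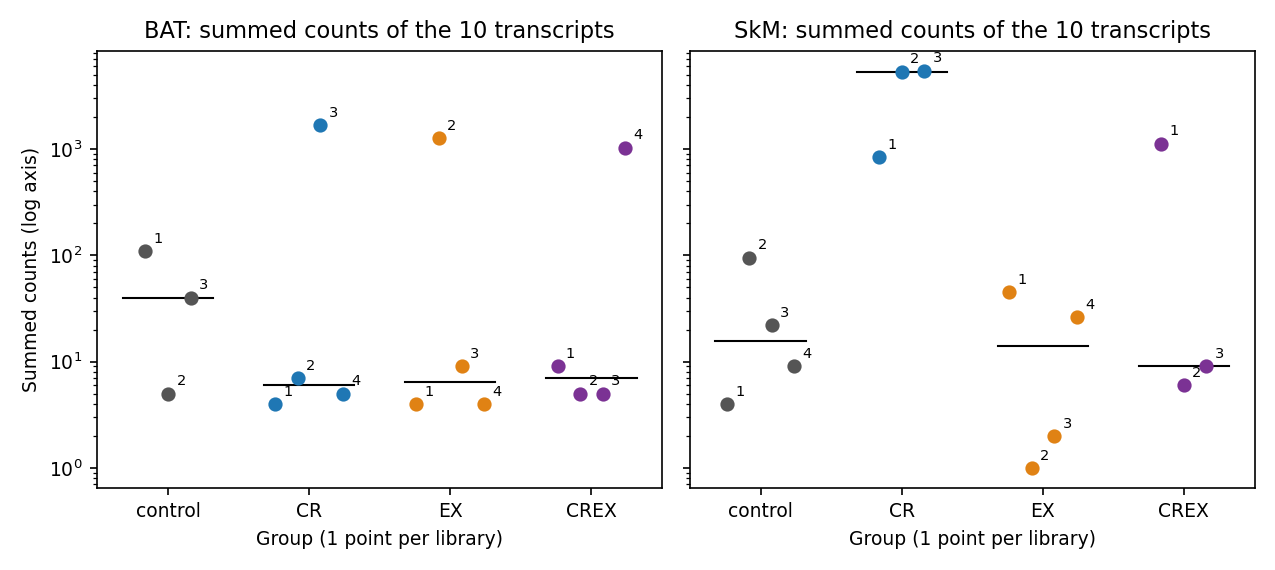
Summed counts of the 10 transcripts in each library (log axis), by group, with the replicate number beside each point and the group median as a line. In BAT 1 library each of CR, EX and CREX lies above 1000 and the rest at or below 109; in SkM all 3 CR libraries and 1 CREX library lie above 800.

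Alb, the most abundant member, had 2, 2, 1247 and 3 counts in the BAT CR libraries against 71, 2 and 19 in BAT control. In BAT EX it had 0, 851, 2 and 2 counts, and in BAT CREX 6, 2, 3 and 819. The high libraries were thus single ones, and the BAT groups overlapped. In SkM it had 635, 3884 and 3765 counts in CR against 4, 69, 19 and 5 in control. In SkM EX it had 29, 0, 1 and 14, and in SkM CREX 838, 4 and 7. The SkM CR libraries lay above every control, EX and 2 of the 3 CREX libraries, and CREX 1 lay above CR 1.

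In muscle under caloric restriction alone, every library exceeded every control library for all 10 members. Over the 21450 genes with a count in that comparison, 9.89% had CR libraries that all lay above the controls. Ttr had 58, 421 and 366 counts in SkM CR against 0, 7, 1 and 1 in control. Ahsg had 56, 329 and 398 against 0, 7, 1 and 3. These are, with Alb, the members with the most counts, and they also had the most control counts.

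The fibrinogen chains came up together from near 0. Fga had 8, 72 and 130 counts in SkM CR against 0, 2, 0 and 0 in control. Fgb had 8, 97 and 175 against 0, 2, 0 and 0. Fgg had 12, 58 and 113 against 0, 2, 0 and 0. The same control library, replicate 2, held each chain's control counts, and the order of the CR libraries was the same for all 3 chains. The genes are neighbours on mouse chromosome 3 (Fgg at chr3:83007724-83015056, Fga at chr3:83026153-83033627 and Fgb at chr3:83042246-83049863).

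Hpx, the haem scavenger, had 12, 85 and 192 counts in SkM CR against 0, 2, 1 and 0 in control. Hamp had 25, 193 and 128 counts against 0 in all 4 control libraries. Reads of its related copy Hamp2 may in part be shared with it. Hamp2 had 5, 10 and 24 counts in CR and 1, 0, 1 and 0 in control, so the split between the copies is uncertain. Of the intracellular proteins, Fabp1 had 9, 103 and 95 counts in CR against 0, 3, 0 and 0. Cps1 had 14, 89 and 88 against 0, 1, 0 and 0. For each of these 4 genes the CR library with the fewest counts was replicate 1, and the groups did not overlap.

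As ratios of summed group counts scaled to depth, SkM CR exceeded control by 103 times for Alb (95% counting interval 84.1 to 127), 113 times for Ttr (59.2 to 248) and 85.7 times for Ahsg (47.6 to 172). With 1 to 3 control counts the ratios of the others were loose, from 83.0 for Fabp1 (28.0 to 406) to 230 for Cps1 (40.8 to 9125). Hamp had no control count, and against a floor of 3 counts per library it was at least 33.7-fold higher. Control 2 held 69 of the 97 control counts of Alb. The ratios of the 9 members with control counts ran from 83.0 to 230 and all 9 intervals overlapped.

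A count filter that keeps genes with enough reads in the smaller group left 7 of the 10 members in the edgeR quasi-likelihood fit of SkM CR against control. The filter dropped Fga, Fgb and Fabp1, whose counts in CR 1 were 8, 8 and 9. Members passed it only through the CR group, where they were high. Of the 13173 genes tested, 9.60% were called in either direction and 4.27% were called higher (adjusted p under 0.05 and fold change above 1.5), and all 7 members were called higher. Their log2 fold changes were 6.62 ± 0.91 (SE) for Alb, 6.71 ± 0.88 for Ttr, 6.32 ± 0.80 for Ahsg, 6.44 ± 0.98 for Fgg, 6.60 ± 1.10 for Hpx and 7.25 ± 0.93 for Cps1. The fitted 9.73 ± 1.39 of Hamp depends on the prior count, since its control libraries were at 0. Without control 2 the log2 fold changes were 8.01 for Alb, 8.31 for Ttr, 7.32 for Ahsg, 8.83 for Fgg, 7.55 for Hpx and 8.89 for Cps1. All 7 members were still called there, where 418 of 13085 genes were called higher. Without the filter, 8 of 10 were called, and Hamp and Fgb were not, where 743 of 21450 genes were called higher. Without CR 1, all 10 passed and were called, where 683 of 13528 genes were called higher. Without CR 3, 6 members were called, with Hamp lost, where 522 of 13353 genes were called higher.

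**Figure D3:**
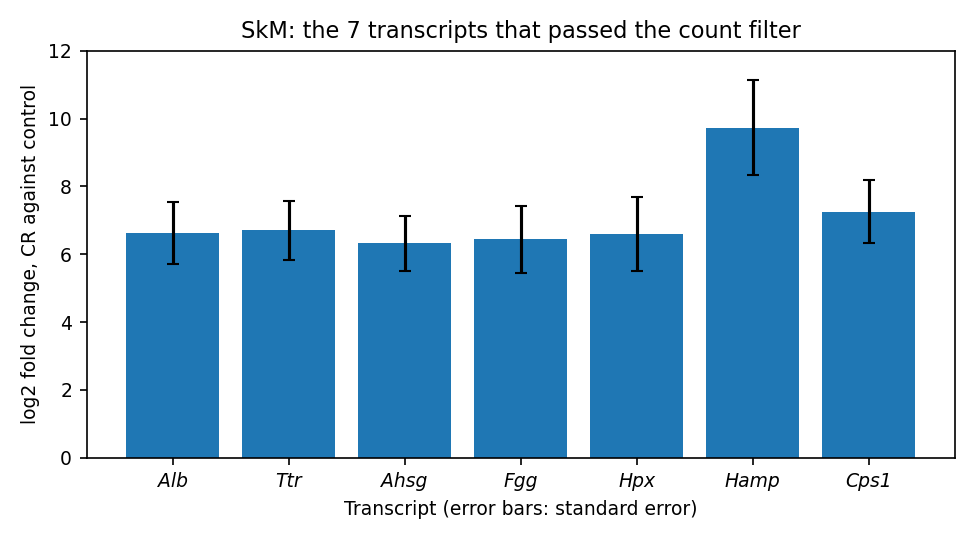
Log2 fold change of SkM CR (n = 3) against control (n = 4) from the edgeR fit for the 7 members that passed the count filter; error bars are standard errors. Bars lie between 6.32 and 7.25 except Hamp at 9.73, whose 4 control libraries had 0 counts.

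In muscle of mice under both interventions, 1 of 3 libraries had high member counts, and CREX 2 and 3 had summed counts of 6 and 9. In SkM CREX, Ttr had 86, 1 and 0 counts, Ahsg 61, 0 and 1, Hpx 38, 1 and 1, Hamp 19, 0 and 0, and Cps1 24, 0 and 0, with the first value in each case from CREX 1. Fga, Fgb, Fgg and Fabp1 had 13, 22, 11 and 9 counts in CREX 1 and 0 in CREX 2 and 3. Against CR alone, 9 members were tested and 0 were called, as were 0% of all 13068 genes. The log2 differences of CREX from CR ran from -4.11 for Hamp to -2.77 for Hpx, and the adjusted p was 0.9989 for each. At an unadjusted p under 0.05 the edgeR test had 477 genes, 4 of them members (Fgg, Hamp, Fga and Ahsg), and DESeq2 called 17 genes and 0 members. In TMM-scaled CPM, Fgg, Hamp and Fabp1 were lower in all CREX libraries than in all CR libraries, which held for 3.89% of 21010 genes. For Fabp1 this rests on the scaling, since CREX 1 and CR 1 had 9 counts each (0.374 and 0.395 CPM). Without CREX 1 the log2 difference of Alb was -8.91 with an edgeR adjusted p of 0.0280. That fit called 100 of 13402 genes and 1 of 10 tested members. It kept only the CREX libraries with 6 and 9 summed member counts, so a lower value follows from the library left out. Leaving out CREX 2 or CREX 3, which stood apart in Mb, called 0 members and 0 genes.

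CREX against EX in muscle tested Alb alone, with a log2 difference of 4.54 ± 2.10 and an edgeR adjusted p of 0.204, where 8.86% of 13133 genes were called. Those 1164 calls became 2570 without CREX 1 and 343 without CREX 2. Without CREX 1 the difference of Alb was -1.16. EX against control in muscle gave Alb a log2 difference of -1.12 ± 1.20 (edgeR adjusted p = 0.961, with 0.0775% of 12907 genes called), and +0.26 without control 2. SkM EX libraries held few counts of any member. EX 1 had 2 for Ttr, 4 for Ahsg and 4 for Hamp, EX 4 had 7 for Ahsg and 4 for Hpx, and Fabp1 and Cps1 were at 0 in all 4, which leaves up to 3 counts in a library undetected. In the interaction of CR and EX in muscle, 0 of 9 members tested were called (edgeR, 0% of 13610 genes, 669 at an unadjusted p under 0.05; DESeq2 called 4 genes and 0 members).

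In brown fat the same members were high in single libraries of 3 groups. Ttr had 108 counts in CR 3, 103 in EX 2 and 42 in CREX 4, and 0 or 1 in the other libraries of those groups. In control it had 8, 0 and 4. Ahsg had 90, 82 and 53 counts in the 3 high libraries, 0 or 1 elsewhere in those groups, and 12, 0 and 6 in control. The fibrinogen chains were at 37, 43 and 19 (Fga, Fgb, Fgg) in CR 3, at 32, 43 and 27 in EX 2 and at 16, 15 and 14 in CREX 4. Elsewhere in those groups 1 count of Fgb in EX 3 was the only one.

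Hamp was detected in BAT only in those 3 libraries, with 22 counts in CR 3, 8 in CREX 4 and 7 in EX 2. Cps1 had 50, 23 and 18 counts in CR 3, CREX 4 and EX 2 and 6 in control 1, and 0 in the other 11. Fabp1 had 29 counts in CR 3, 54 in EX 2 and 3 in CREX 4. Hpx differed from the other members in having counts in all 15 BAT libraries. It had 25, 37 and 37 counts in CR 3, EX 2 and CREX 4, and 1 to 5 in the remaining 12, control included.

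None of the BAT comparisons called a member. Alb alone passed the filter in CR against control, with a log2 difference of 3.32 ± 2.60 (edgeR adjusted p = 0.416; 10.7% of 13323 genes were called), and it no longer passed without CR 3. In EX against control it was 2.90 ± 2.59 (edgeR adjusted p = 0.810), where 0% of 13408 genes were called, 972 had an unadjusted p under 0.05 and DESeq2 called 39 genes. No member passed the filter in CREX against EX, where 4.48% of 13251 genes were called, or in CREX against CR, where 0.00763% of 13112 were. In the interaction of CR and EX, 8 members were tested and 0 called (edgeR, 0% of 13922 genes, 802 at an unadjusted p under 0.05; DESeq2 called 5 genes and 0 members). The interaction of Alb changed sign when CR 3 or EX 2 was left out.

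Between the tissues, Alb did not differ detectably in control mice. Its log2 difference of BAT from SkM was -0.03 ± 1.30 (edgeR adjusted p = 0.985), where 60.0% of 13797 genes were called, and its sign changed to +0.32 without scaling beyond library totals. The effect of CR in BAT was compared with that in SkM for all 10 members, and 0 were called, against 7.58% of 14369 genes. The largest of these differences relative to its error was that of Hpx, with a log2 value of -5.40 ± 2.19 (edgeR adjusted p = 0.162). Without BAT CR 3, 4 of 7 tested members (Alb, Ahsg, Hpx and Cps1) were called, each with a smaller CR effect in BAT. Of all 14278 genes tested there, 1327 were called, 669 of them with a negative value. The value of Alb went from -3.25 to -10.17. BAT CR 3 had 1670 summed member counts, and BAT CR 1, 2 and 4 had 4, 7 and 5. The direction of these member values thus follows from leaving out the high library, and they show no separate tissue difference.

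The members kept company across libraries. In BAT the Spearman correlation between pairs of the 7 members with counts in at least 5 libraries had a median of 0.836 over 21 pairs and 15 libraries, from 0.436 to 1. In SkM it had a median of 0.873 over 45 pairs of the 10 members and 14 libraries, from 0.767 to 0.994. After subtracting group means the medians were 0.892 and 0.890. The points share libraries and depth, and many are counts of 0 or 1.

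The proportions of the members to each other varied between the high libraries. In the 8 libraries with at least 100 summed counts, Alb was 65.1% to 79.5% of the sum. Fabp1 was 0.291% of the sum in BAT CREX 4 (exact 95% counting interval up to 0.849%) and 4.31% in BAT EX 2 (from 3.25%). Per 100 Alb counts, Fabp1 was 0.366 (0.075 to 1.07) in BAT CREX 4, 6.35 (4.73 to 8.36) in BAT EX 2 and 2.65 (2.16 to 3.23) in SkM CR 2. The Fabp1 share was thus not the same in any 2 of these 3 libraries within counting error.

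Hamp per 100 Alb counts was 3.94 (2.53 to 5.87), 4.97 (4.28 to 5.74) and 3.40 (2.83 to 4.06) in SkM CR 1, 2 and 3. It was 2.27 (1.36 to 3.56) in SkM CREX 1, 1.76 (1.10 to 2.68) in BAT CR 3, 0.977 (0.420 to 1.93) in BAT CREX 4 and 0.823 (0.330 to 1.70) in BAT EX 2. The intervals of BAT EX 2 and BAT CREX 4 both lay below those of all 3 SkM CR libraries. Hpx per 100 Alb counts was 1.89 (0.971 to 3.32) and 2.19 (1.74 to 2.71) in SkM CR 1 and 2 and 5.10 (4.39 to 5.90) in SkM CR 3, so libraries of 1 group also differed. Ttr was lowest in BAT CREX 4, at 5.13 (3.67 to 6.99), and highest in BAT EX 2, at 12.1 (9.77 to 14.9). Cps1 ran from 2.12 (1.25 to 3.36) in BAT EX 2 to 4.01 (2.96 to 5.32) in BAT CR 3 over the 7 libraries with over 800 summed counts, and the interval of BAT CR 3 lay above those of SkM CR 2 (1.84 to 2.83) and CR 3 (1.87 to 2.89). These intervals cover counting error only, the libraries named are the extremes, and the spread of these ratios between animals of a group is not known.

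**Figure D4:**
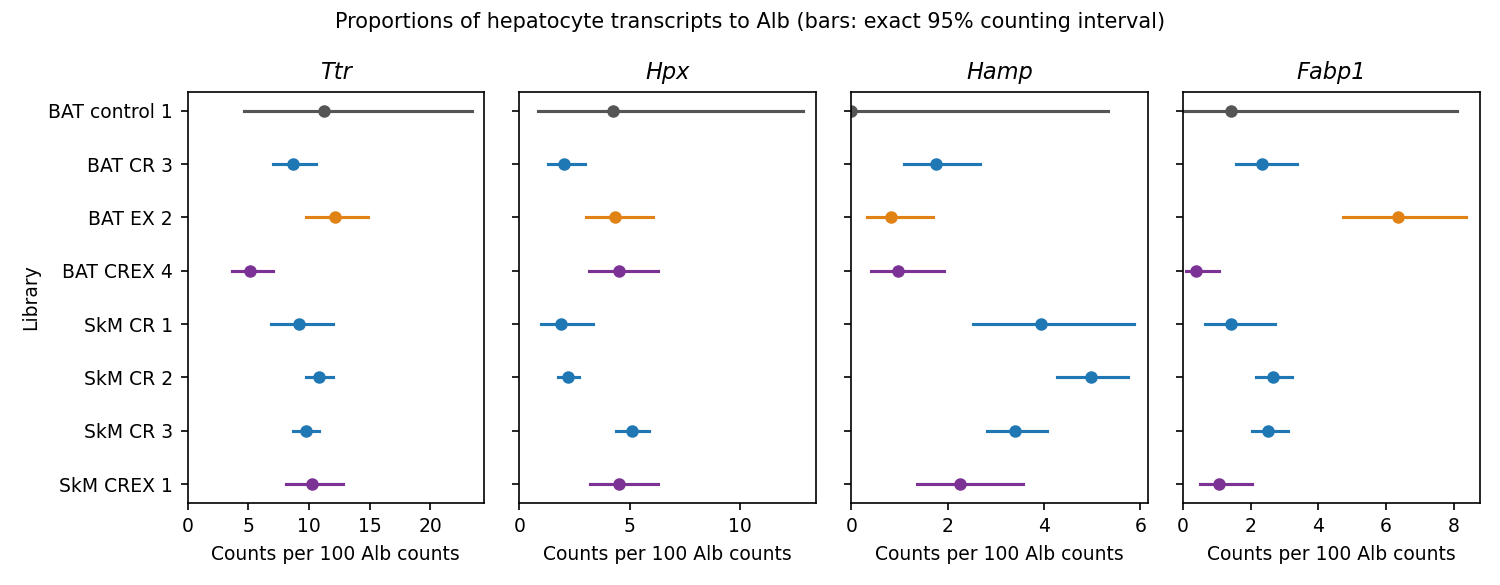
Counts of Ttr, Hpx, Hamp and Fabp1 per 100 Alb counts in the 8 libraries with at least 100 summed counts, with exact 95% counting intervals; colours mark control, CR, EX and CREX. Fabp1 ranges from 0.366 in BAT CREX 4 to 6.35 in BAT EX 2, and Hamp is highest in SkM CR 2 at 4.97.

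Per kilobase of exon, the highest level of each member put Alb first in both tissues, at 25.3 CPM per kb in BAT CR 3 and 75.5 CPM per kb in SkM CR 2. In SkM it was followed by Hamp (18.6 CPM per kb), Ttr (14.0) and Ahsg (8.92), and in BAT by Fabp1 (4.47 CPM per kb), Ttr (3.97) and Hamp (2.21). Cps1, the longest transcript, was last in both, at 0.633 CPM per kb in SkM and 0.371 in BAT. Each value is that of the gene's own highest library, so the orders mix libraries (BAT CR 3 and EX 2, SkM CR 2 and CR 3).

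Other genes of the same kind went with the members. A list of 55 other hepatocyte genes (32 plasma proteins, 23 enzymes and transporters) was compared with the summed counts; it too was written with earlier results known. All 55 had a count in SkM CR 2, SkM CR 3 and BAT CREX 4, 54 in BAT EX 2, 52 in BAT CR 3 and SkM CREX 1 and 51 in SkM CR 1. In the 16 libraries with at most 9 summed member counts, 17 to 30 of the 55 had one. In BAT, 19 of 28 plasma protein genes and 13 of 22 enzyme genes had CR 3, CREX 4 and EX 2 as their 3 highest libraries, as had 0.615% of 18045 genes with enough counts. In SkM, 22 of 31 and 16 of 23 had CR 1, CR 2, CR 3 and CREX 1 as their 4 highest, as had 1.38% of 17558 genes. No gene of the muscle, brown adipocyte or blood lists had either set.

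In SkM CR against control, 19 of 20 tested plasma protein genes and 10 of 10 tested enzyme genes were called higher, where 4.27% of all genes were. Only 30 of the 55 were tested, and 5 passed the filter in SkM EX against control, so most passed through the CR libraries in which they were high and their counts are a description. Their median log2 fold changes were 4.86 and 6.80, against 0.0049 over all genes tested. Rbp4, the retinol carrier, rose by 3.93 ± 0.35, Trf, the iron carrier transferrin, by 2.65 ± 0.32 and Kng1, the kinin precursor, by 6.87 ± 0.95 on the log2 scale. Vtn, which encodes vitronectin, was at -0.13 ± 0.18 and was not called. Among the enzymes, Gnmt of methionine metabolism rose by 2.60 ± 0.23, the drug-metabolising Cyp2e1 by 4.40 ± 0.39 and Uox, which degrades urate, by 7.16 ± 0.84. Some list genes are not particular to liver. Rbp4 had 1120 to 2394 counts in the BAT libraries and Trf 1236 to 5961. Trf also had 316 counts in SkM CREX 3 and 328 in SkM EX 1, beside 9 and 45 summed member counts. Cyp2e1 had 635 to 8497 counts in the BAT libraries, and its 983 counts in SkM EX 1 stood beside 282 counts of Adipoq and 45 summed member counts.

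By pattern, the genes closest to the summed member level in BAT were Gc (Spearman rho 0.882), Ces1c (0.836), Mat1a (0.836), Ambp (0.830) and Serpina3k (0.825) over 15 libraries and 13945 genes. In SkM they were Serpina1a (0.973), Serpina3k (0.971), Serpina1c (0.965), Gc (0.938) and Mug1 (0.933) over 14 libraries and 13659 genes. Gc carries vitamin D, Ambp is the precursor of a plasma protease inhibitor, and the Serpina1 genes encode copies of alpha-1-antitrypsin so alike that the counts of each copy are uncertain. Among the 5 highest by Pearson correlation instead, 1 gene was shared in BAT and 2 in SkM.

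Among liver genes of other kinds, some were near 0 and others were common in the tissues themselves. Hnf4a, a transcription factor of hepatocytes, had 7, 35 and 22 counts in SkM CR 1, 2 and 3, 8 in SkM CREX 1, 3 in BAT CR 3, 6 in BAT CREX 4, 1 in BAT EX 2 and 2 in BAT control 1, and 0 in every other library. Of the 12 hepatocyte transcription factors, 2 (Prox1 and Cebpa) were tested in SkM CR against control and 0 were called. Cebpa, which adipocytes also use, had 4760 to 14204 counts in the BAT libraries. Clec4f, a marker of liver-resident macrophages, reached 6 counts, and Cd5l 5, both in SkM CR 2. Of 9 genes of liver macrophages and sinusoidal cells, 2 were tested there and 0 called, and Stab2, a scavenger receptor of sinusoidal cells, had 231 to 598 counts in every SkM library.

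The pathways in which the members act gave mixed counts in SkM CR against control, to be read against the 9.60% of all genes called, 4.27% higher. Of 4 tested urea cycle genes, 1 was called higher, Ass1, which joins citrulline and aspartate, at 2.10 ± 0.36. Ass1 had 97, 278 and 429 counts in SkM CR and 119 in CREX 1, libraries high in the members, against 54, 58, 57 and 50 in control. Of 11 tested genes of hepcidin control and iron export, 1 was higher and 2 lower. Il6ra, the IL-6 receptor chain, rose by 2.02 ± 0.30. Smad6, an inhibitor of BMP signalling, fell by 0.96 ± 0.16 and Slc40a1, the iron exporter ferroportin, fell by 0.74 ± 0.13 on the log2 scale.

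Of 10 tested acute phase and IL-6 response genes, 4 were higher (Orm1, Lcn2, Hp and Il6ra), with Orm1, the orosomucoid gene, at 5.17 ± 0.73. Hp is also on the plasma protein list above. In the BAT libraries Hp had 5400 to 11075 counts and Orm1 1104 to 2641. Hp had 51, 111 and 182 counts in SkM CR and 107 in SkM EX 1, where Adipoq was high. Whether these rises came from muscle cells was not tested. The acute phase gene Saa1 had at most 9 counts in any SkM library. Of 3 tested fatty acid-binding protein genes, Fabp3, the muscle form, fell by 1.35 ± 0.25, and Fabp4 and Fabp5 were not called. Of 6 tested genes of haem and albumin scavenging, 1 was higher, Hp, the haemoglobin carrier haptoglobin, at 2.51 ± 0.51.

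In SkM CREX against EX, 0 of 5 tested plasma protein genes and 0 of 2 tested enzyme genes were called, where 8.86% of all genes were. Of the pathway lists, 2 of 10 acute phase genes were higher there (Il6ra at 1.66 ± 0.37 and Lcn2 at 2.10 ± 0.48). Of 11 genes of hepcidin control and iron export 1 was higher, Il6ra again, and Slc40a1 and Smad6 fell by 0.66 ± 0.13 and 0.93 ± 0.24. Of 4 urea cycle genes Slc25a15, the mitochondrial ornithine carrier, fell by 0.78 ± 0.17, and of 3 fatty acid-binding protein genes Fabp3 fell by 1.74 ± 0.41. In BAT CR against control, 10.7% of 13323 genes were called, 516 higher and 912 lower. Of 9 tested plasma protein genes, 2 were called higher and 1 lower, and 2 of 5 enzyme genes were called higher. Their medians were 0.62 and 1.04 on the log2 scale, against 0.0046 over all genes. Hp (lower) and Cyp2e1 (higher) were among the calls, and both were common in every BAT library.

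Markers of other cell types varied between the same libraries. In BAT, 10 muscle genes summed to 1326 CPM in CR 3, 1892 in CREX 4 and 3525 in EX 2. The highest value was 5882 CPM in CREX 3, which had 5 summed member counts, and EX 3 had 3829 with 9. By group the muscle sums ran from 4.50 to 621 CPM in BAT control, 19.9 to 1326 in CR, 8.23 to 3829 in EX and 937 to 5882 in CREX. In SkM, Adipoq, the adipocyte hormone adiponectin, had 226, 22 and 351 counts in CR against 38, 0, 10 and 23 in control. It had 356 in CREX 1 and 282 in EX 1. Its log2 difference of CR from control was 3.34 ± 0.99 (edgeR adjusted p = 0.0655), and that of Cidec, a lipid droplet protein, was 3.33 ± 1.04 (adjusted p = 0.0762). Both genes were chosen after their values were seen. Of 7 tested brown adipocyte genes, 0 were called higher and 2 lower (Cox7a1 and Dio2), with a median log2 difference of -0.16. The brown adipocyte genes summed to 214 to 322 CPM in SkM CR against 261 to 423 in control. Over the SkM libraries that sum was mostly Fabp4 (mean 157 CPM) and Cox7a1 (129). Adipoq (4.28) and Cidec (4.50) added little, so the sum does not follow them. The 22 Adipoq counts in CR 2 stood beside 5331 member counts, and the 282 in EX 1 beside 45. Blood cell genes summed to 1699, 735 and 775 CPM in SkM CR against 661 to 916 in control. The part of such cells, or of RNA from another tissue, in the member counts was not tested.

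**Figure D5:**
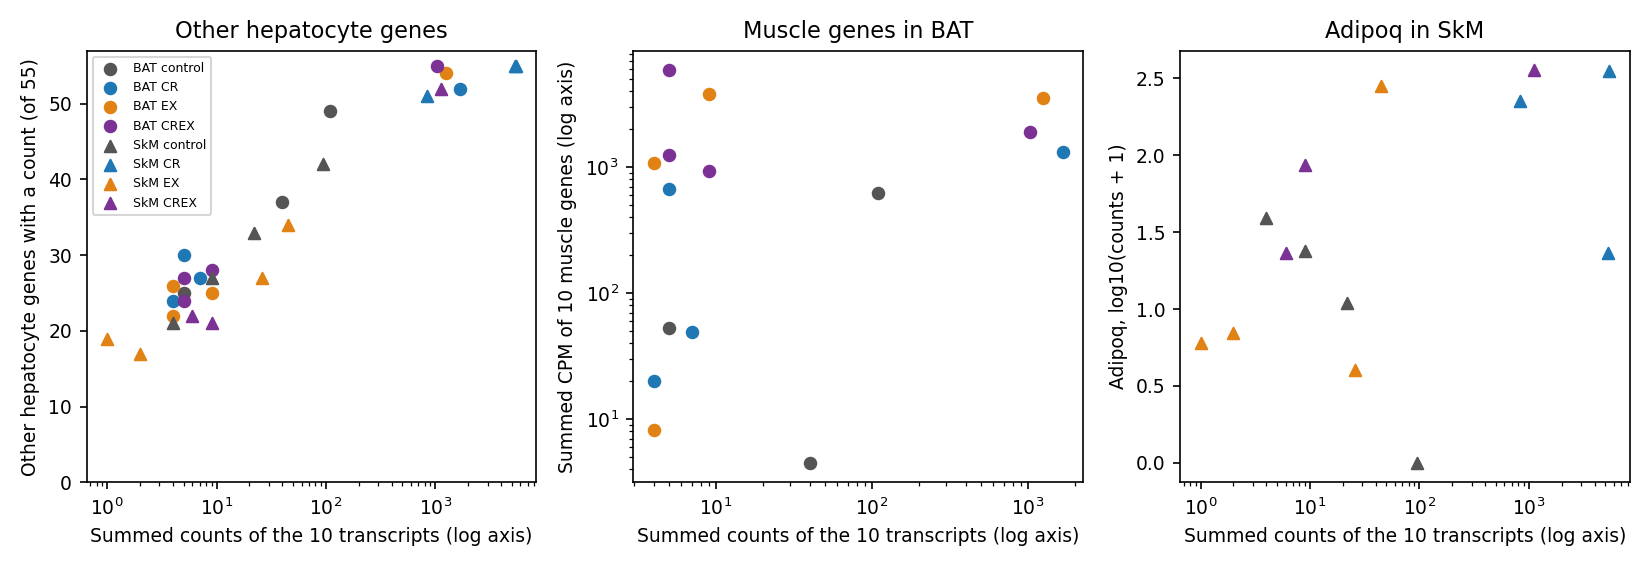
Each point is a library (circles BAT, triangles SkM, colour by group) placed by its summed member counts (log axis). Left, the other hepatocyte genes with a count, of 55; middle, summed CPM of 10 muscle genes in BAT (log axis); right, Adipoq in SkM as log10(counts + 1). The left panel climbs from 17 to 55 genes with the member counts, and in the other panels libraries with few member counts reach values as high as, or close to, those with many.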

How the data were processed

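Gene expression was measured by bulk RNA-seq. Per the methods, the authors trimmed reads with trim-galore, aligned them to mm10 with STAR and estimated gene-level values with RSEM. The submitters' processing notes name STAR 2.7.10a, RSEM 1.2.28 and DESeq2 1.3.40, and the paper names other versions of the last 2. The annotation and strand setting are not given in the sources used here. The deposited values are expected counts, of which 6.11% were not whole. They were rounded, and 27 symbols turned into dates were left unnamed.

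The members and lists were chosen with earlier results of these data known. Named genes were all members and, from other lists, those with the smallest p or highest level, with the 5 most similar genes per tissue; genes added after their values were seen were Vtn, Adipoq, Cidec, Hnf4a, Clec4f, Cd5l, Saa1, Hamp2, Tat and Cyp3a11. Genes were kept by filterByExpr and scaled by TMM, separately for each comparison, and tested with edgeR 4.0.16 quasi-likelihood (robust) in R 4.3.3, on the libraries compared, with Benjamini-Hochberg adjustment over all genes tested. The scripts were checked on simulated counts. CPM used TMM factors of all libraries of a tissue. p-values measure the spread between libraries, and the labels do not say that each library is 1 mouse. Same-numbered libraries did not deviate together (mean correlation -0.269 to 0.135 by comparison). Alternatives were DESeq2 1.42.0, other scaling, no filter, a replicate block, a fit on all groups and leaving out each library; leaving out the high BAT libraries together was chosen after seeing the data.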

Additional observations from a re-analysis of the deposited data

Results flagged for a closer look

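In groups of 4 libraries, the highest library was set against the other 3 by Dixon's 95% critical value. It stood apart in 34 of 55 sets of a group and a member or the sum. Chance flags about 1 in 20 only for independent values with a normal spread. Many of these counts were near 0, where a small count beside 3 libraries at 0 is flagged, so that rate is no yardstick here. The sets are not independent, since the members moved together. BAT CR 3 was flagged for the sum (1670 counts), Alb (1247), Ttr (108), Ahsg (90), Cps1 (50), Fgb (43), Fga (37), Fabp1 (29), Hamp (22) and Fgg (19). BAT EX 2 was flagged for the sum (1254 counts), Alb (851), Ttr (103), Ahsg (82), Fabp1 (54), Fgb (43), Hpx (37), Fga (32), Fgg (27), Cps1 (18) and Hamp (7). BAT CREX 4 was flagged for the sum (1030 counts), Alb (819), Ahsg (53), Ttr (42), Hpx (37), Cps1 (23), Fga (16), Fgb (15), Fgg (14) and Hamp (8). In SkM the flags were few and at counts near 0, namely Ttr in control 2 (7 counts), Hpx in EX 4 (4) and Hamp in EX 1 (4). Groups of 3 libraries, SkM CR and SkM CREX among them, were not examined.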

How the results depend on the processing

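Counting error limits every member outside the 7 libraries with over 800 summed counts. Same-numbered libraries are not known to share more than a number. The replicate block moved all calls from 1428 to 926 in BAT CR and from 1164 to 661 in SkM CREX against EX. For the CR effect between tissues it moved them from 1089 to 657 (1644 with DESeq2). SkM EX against control had 10 calls, against 52 with DESeq2, 31 without the filter, 1 with the block and 0 with all groups, BAT CREX against CR had 1, against 30 with DESeq2 and 51 with the block, and BAT EX against control had 0, against 7 without the filter. Leaving out 1 library gave 361 to 583 calls in BAT CREX against EX (594 with all, the lowest without CREX 4), 343 to 2570 in SkM CREX against EX and 659 to 1426 for the CR effect between tissues, and 100 in SkM CREX against CR without CREX 1. In SkM CREX against EX the block called 1 member (Alb, 4.61, edgeR adjusted p = 0.00459) and 1 other hepatocyte gene, and without the filter 1 other hepatocyte gene was called. For the CR effect in BAT against SkM, DESeq2 and the block called 1 member each (Hpx), and leaving out 1 library gave 0 to 4. In SkM CR against control leaving out 1 library gave 6 to 10 members and 28 to 49 other hepatocyte genes, among 405 to 683 genes called higher. In SkM CREX against CR leaving out 1 library gave 0 to 1 members. In BAT CREX against EX the other hepatocyte genes called higher numbered 1, against 0 without the filter or with the block, 2 with DESeq2, with all groups or without BAT CREX 4 and EX 2, and 0 to 2 leaving out 1 library. By Pearson correlation the member pairs had medians of 0.946 in BAT and 0.973 in SkM, and 1 and 2 of the 5 most similar genes were shared. The SkM CR sum without Alb was 43.5 CPM. Leaving out 1 library, the log2 difference of Alb ran from -9.26 to 3.72 in the BAT interaction, 6.25 to 8.01 in SkM CR against control (highest without control 2), -1.16 to 5.11 in SkM CREX against EX, -2.24 to 0.26 in SkM EX against control and -1.61 to 1.36 between tissues in control, where it was 0.32 without scaling. Alb fell below the filter without BAT CR 3 in CR against control, without BAT EX 2 in EX against control and without EX 1 or EX 4 in SkM CREX against EX, so those gave no value. The causes were not tested.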

Other observations

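Genes outside the member set also differed in their proportion to Alb; Tat, Cyp3a11 and Serpina1c were chosen after their values were seen. Tat, tyrosine aminotransferase of amino acid breakdown, had 0.823 counts per 100 Alb counts in BAT EX 2 (exact 95% counting interval 0.330 to 1.70). BAT control 1, the other freely fed library, had 2.82 (0.335 to 10.6). In the libraries of calorie-restricted mice it had 3.85 (2.82 to 5.14) in BAT CR 3, 2.56 (1.58 to 3.95) in BAT CREX 4, 2.68 (1.55 to 4.32), 4.25 (3.61 to 4.97) and 3.43 (2.85 to 4.08) in SkM CR 1, 2 and 3 and 6.21 (from 4.596 to 8.22) in SkM CREX 1. The Tat interval of BAT EX 2 overlapped those of BAT CREX 4 and SkM CR 1. Cyp3a11, a cytochrome P450 of drug metabolism, was lowest in BAT EX 2, at 2.70 (1.70 to 4.08), and highest in SkM CR 2, at 12.2 (11.1 to 13.4). It had 2.82 (0.335 to 10.6) in BAT control 1 and 4.40 (3.06 to 6.14) in BAT CREX 4, whose interval overlapped that of BAT EX 2. Serpina1c, an alpha-1-antitrypsin copy, went the other way, with 19.9 (16.7 to 23.4) in BAT EX 2 and 5.37 (3.87 to 7.28) in BAT CREX 4. In BAT control 1 Serpina1c had 18.3 (9.30 to 33.4). The freely fed mice are represented by 2 libraries, so the feeding groups were not compared.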
